A study of Mus musculus with 4 samples.

Results

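The respiratory chain genes described here are the nuclear genes for subunits of complexes I to IV. They were taken by name from the protein-coding rows of the deposited gene table, as the symbols that begin with NDUFA, NDUFB, NDUFC, NDUFS or NDUFV and a digit, the SDHA, SDHB, SDHC and SDHD genes, and the symbols that begin with UQCR or with COX4 to COX8. This gave 69 of 58735 gene rows, with 39 in complex I, 4 in complex II, 9 in complex III and 17 in complex IV. All libraries are labelled as Jurkat, a line of human leukaemic T cells, grown in medium with serum. RNA sequencing reads were counted per gene. The labels name no edit for the 2 wild-type libraries, and in the 2 libraries labelled Matr3 knock out the MATR3 gene, which encodes the nuclear RNA-binding protein matrin 3, was targeted by CRISPR-Cas9. The labels name no other agent, do not say whether the knockout is 1 clone or a pool, and do not say that replicates were separate cultures, so the p-values reflect the spread among these 4 libraries alone, which may be technical.

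The respiratory chain lies in the inner mitochondrial membrane. Complex I takes electrons from NADH and complex II takes them from succinate, both pass them to ubiquinone, complex III moves them on to cytochrome c, and complex IV hands them to oxygen. Complexes I, III and IV pump protons and contain subunits encoded by mitochondrial DNA, whereas complex II is encoded wholly in the nucleus. The remaining subunits are made in the cytosol and imported, and several of those in complex IV exist as isoforms restricted to muscle, lung or testis.

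Total counts ranged from 15008554 to 17477643 per library, and levels are given as CPM, counts scaled to a common library size and corrected for composition. The targeted gene held few reads in every library, 19 and 9 in wild-type against 42 and 61 in the libraries labelled knockout, and was called higher in the latter (log2 fold change 2.05, SE 0.384, edgeR adjusted p = 2.85e-06), which goes against the label. A second MATR3 row that overlaps it had 5 and 1 reads against 2 and 2. These rows do not show the loss that the label names, reads in the overlap may be counted for neither, and all directions below are those of the label. All 14 T cell markers listed had reads in every group, and their summed level was 3660 and 3406 CPM in wild-type against 1478 and 1440 CPM in the libraries labelled knockout, with 13 lower. Of 15 myeloid markers 13 were tested and all 13 were higher, with a summed level of 96.0 and 98.7 CPM in wild-type against 6098 and 5974 CPM in the libraries labelled knockout, where none was at 0. The wild-type group had no reads for CD68, CSF3R and ELANE. B cell markers (2 of 5 tested, 1 higher and 1 lower) summed to 8.77 to 16.4 CPM, erythroid markers (0 of 6 tested) to at most 1.15 CPM, and epithelial markers (3 of 6 tested, all higher) to 11.5 to 13.9 and 123.5 to 125.5 CPM. Reads of the mitochondrial chromosome took 4.92% and 5.31% of the wild-type counts and 9.33% and 9.49% of the others. The part of these differences in the results below was not tested. In such bulk libraries, fewer cells of a type and less RNA per cell cannot be told apart.

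Most of the nuclear respiratory chain genes tested were lower in the libraries labelled knockout, mostly by less than 2-fold, and complex II showed no common direction. Of the 69 genes, 62 had enough reads to be tested, and 35 of these were lower and 8 higher at an adjusted p of 0.05 (edgeR quasi-likelihood test, 2 against 2). Across all 15294 genes tested 66.0% were called, 32.3% lower and 33.7% higher, so the 56.5% of respiratory chain genes called lower stood above the share of all genes and the 12.9% called higher stood below it. The median log2 fold change of the 62 genes was -0.33, against 0.02 over all genes tested. The members are abundant, and among genes averaging at least 50 CPM the gap was smaller, with 58.5% of 41 members lower (median -0.37) against 49.4% of 4045 other protein-coding genes (median -0.16). Only NDUFB2 and NDUFA2 were lower by at least 2-fold, no member was higher by as much, and the full range ran from -1.23 to 0.95. With a fold of at least 1.5 also required, 15 were lower and 3 higher. The 7 genes not tested were NDUFC2-KCTD14 and 6 isoform genes of complex IV.

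**Figure D1:**
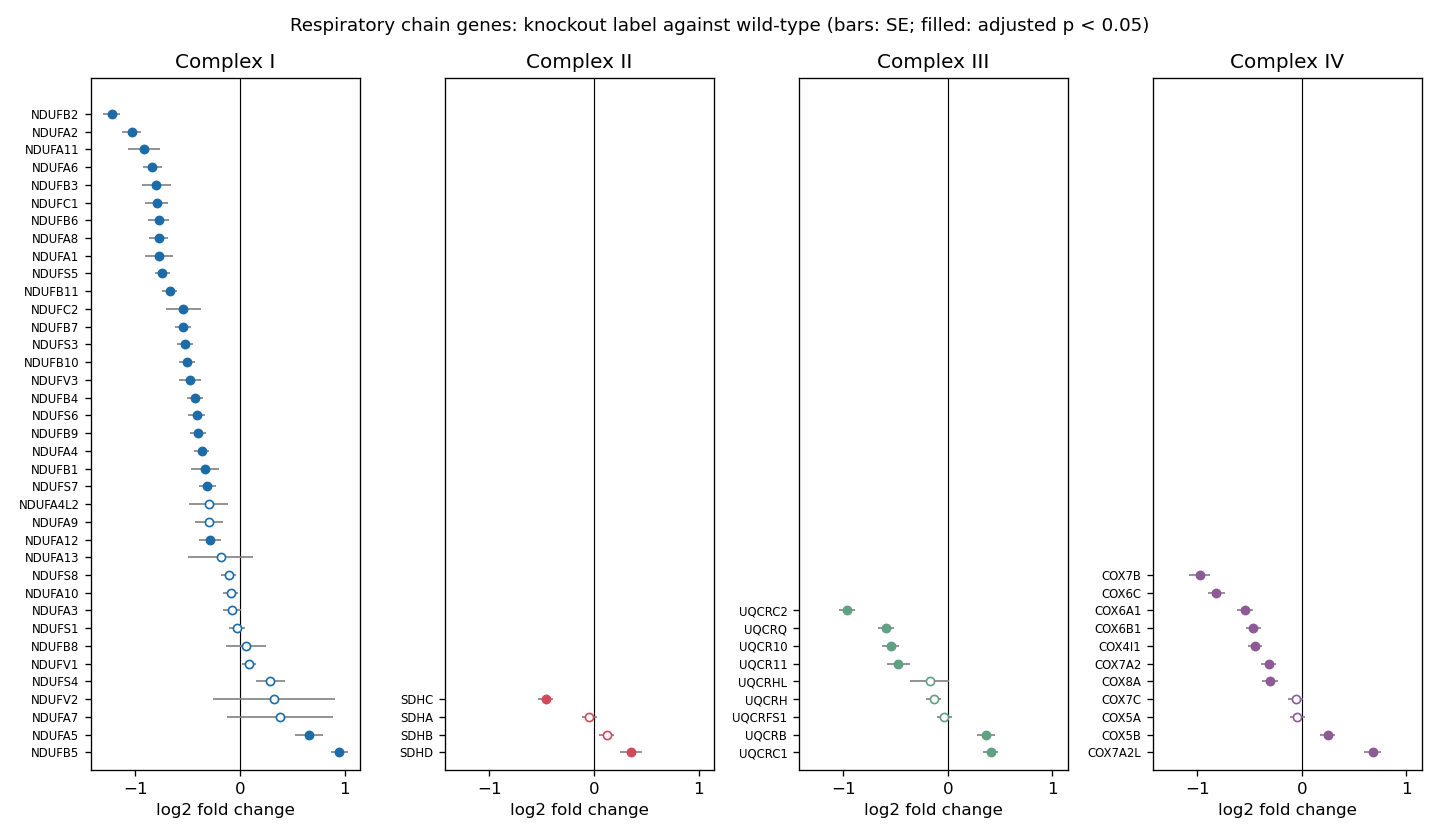
Log2 fold change (x axis, libraries labelled knockout minus wild-type) of 61 respiratory chain genes, in 1 panel for each complex, with standard errors as bars and filled points for genes past an adjusted p of 0.05. Most complex I and IV genes lie left of 0, down to NDUFB2 at -1.23, while the 4 complex II genes lie between -0.46 and 0.35.

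Complex I, the NADH dehydrogenase, had 23 genes lower and 3 higher of 38 tested, with a median log2 fold change of -0.39. Its 7 nuclear core subunits, which carry the flavin and the iron-sulfur clusters or line the ubiquinone site, included 2 that were lower. NDUFV1, which binds NADH, stood at 272 and 243 CPM in wild-type against 272 and 275 CPM in the libraries labelled knockout, so the groups overlapped (log2 fold change 0.09, adjusted p = 0.280). Without wild-type replicate 1 it was called higher (0.19, adjusted p = 0.000904). NDUFS1, the largest iron-sulfur subunit, also overlapped, at 81.8 and 92.7 CPM against 85.1 and 85.8 CPM. NDUFS3 fell from 129 and 119 CPM to 88.1 and 84.6 CPM (log2 fold change -0.52, SE 0.077, adjusted p = 1.02e-08). NDUFS7 was lower by less, at 87.4 and 84.2 CPM against 70.4 and 67.6 CPM, and its adjusted p of 0.000509 became 0.0669 without replicate 2 labelled knockout. NDUFS8 stood at 214 and 199 CPM and at 191 and 193 CPM (adjusted p = 0.184), and it passed without wild-type replicate 2 (adjusted p = 0.00349). NDUFV2 had 14 and 5 reads in wild-type against 12 and 9 in the others, too few to place it.

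The accessory subunits of complex I, which surround the core and are needed for its assembly and stability, made up most of the lower genes. Among 31 of them the test called 21 lower (median log2 fold change -0.43), against 2 lower of 7 and a median of -0.03 for the core. This difference between core and accessory genes was not tested, and the core genes have longer gene models (median 4523 bases, against 1941). NDUFB2, of the distal membrane arm (ENSG00000090266, chromosome 7, 140690777 to 140722790), stood at 142 and 137 CPM in wild-type against 54.8 and 64.1 CPM in the libraries labelled knockout. Both of the latter lay far below both wild-type libraries, a ratio of 0.427 (log2 fold change -1.23, SE 0.081, adjusted p = 3.13e-23). NDUFA2, a thioredoxin-like subunit of the peripheral arm (ENSG00000131495, chromosome 5, 140638740 to 140647785), went from 80.8 and 81.3 CPM to 37.9 and 41.2 CPM (log2 fold change -1.04, SE 0.089, adjusted p = 2.31e-17). NDUFA6, a peripheral arm subunit of the LYR protein family, fell from 70.3 and 75.9 CPM to 41.5 and 40.0 CPM (log2 fold change -0.84, SE 0.091). NDUFA11, a membrane arm subunit whose row lies 98.3% inside another row on the same strand, fell from 24.5 and 22.9 CPM to 13.6 and 11.5 CPM (log2 fold change -0.92, SE 0.151). In each of these genes the groups did not overlap.

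Subunits of the NDUFB series, which belong to the distal part of the membrane arm, fell together with 1 exception among those called. Of 11 tested, 9 were lower and 1 higher, and their summed level was 1139 and 1105 CPM in wild-type against 792 and 812 CPM in the libraries labelled knockout. NDUFB3, NDUFB6 and NDUFB11 had log2 fold changes of -0.80, -0.78 and -0.67. NDUFB5 (ENSG00000136521, chromosome 3, 179604690 to 179627647) went the other way, from 50.7 and 50.2 CPM to 98.5 and 96.4 CPM, the largest rise among all 62 genes (log2 fold change 0.95, SE 0.083, adjusted p = 4.50e-17). The other accessory rise was NDUFA5, of the peripheral arm, from 18.8 and 20.7 CPM to 29.9 and 32.5 CPM (log2 fold change 0.66, SE 0.131, adjusted p = 8.90e-06). Both NDUFC genes tested were lower, NDUFC1 at -0.80 and NDUFC2 at -0.54, the latter losing its call without replicate 2 labelled knockout (adjusted p = 0.150). NDUFS5, an intermembrane space subunit with the highest wild-type level per length of all members, fell from 176 and 172 CPM to 101 and 107 CPM (log2 fold change -0.74, SE 0.074). NDUFS4, a peripheral arm subunit mutated in Leigh syndrome, stood at 17.0 and 21.4 CPM against 23.0 and 23.9 CPM and missed the threshold (adjusted p = 0.0641). Without wild-type replicate 2 NDUFS4 was called higher (log2 fold change 0.45, adjusted p = 0.00664), and it also passed with 3 other scalings or row sets (adjusted p = 0.0312 to 0.0474).

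Several rows, most of them of complex I, share their position with other rows, which limits what they show. Of the 69 genes, 12 lie by at least 90% inside another row on the same strand, 11 of these were tested, and 5 were lower and 1 higher. The lower ones are NDUFA11, NDUFC2, UQCR11, COX6A1 and COX8A, and the higher one is SDHD, and their values carry this limit wherever they are given. NDUFA7, NDUFA13 and NDUFV2 are among those not called, and they stood at 0.553, 1.15 and 0.206 FPKM (CPM per 1000 bases of gene model) in wild-type, against a median of 28.5 and 26.4 FPKM for all complex I genes in the 2 wild-type libraries. Reads that fall in 2 rows may have been assigned to neither, so these 3 values are not taken as levels of the genes. NDUFB8, a further one, stood at 9.87 and 7.91 CPM and at 8.39 and 10.2 CPM. Without the 12 covered genes, 30 were lower and 7 higher. NDUFA2 and NDUFB2 overlap genes on the opposite strand (IK and TMCO6 for NDUFA2, BRAF and an antisense gene for NDUFB2). NDUFB2 also overlaps ADCK2 on its own strand by 17.1% of its span. Larger overlaps on the same strand were those of NDUFS3 with PTPMT1 (41.8%) and NDUFC1 with MGARP (37.7%). On the opposite strand, NDUFB6 overlaps SMIM27 by 77.4% and NDUFB9 overlaps MTSS1 by 71.9%. No source used here gives the strand setting of the counting, so reads of such partners cannot be told apart.

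Complex II, succinate dehydrogenase, which also works in the citric acid cycle, showed no common direction. SDHA, the flavoprotein, stood at 266 and 245 CPM in wild-type against 251 and 245 CPM in the libraries labelled knockout (log2 fold change -0.04, adjusted p = 0.590). The groups overlapped, and without wild-type replicate 2 the gene passed as lower (-0.12, adjusted p = 0.0281). SDHB, the iron-sulfur subunit, stood at 109 and 110.0 CPM against 119.7 and 119 CPM, which did not overlap but missed the threshold (log2 fold change 0.12). The 2 membrane anchors together hold the haem and the ubiquinone site, and their rows were called in opposite directions, SDHD on a row that lies 99.6% inside another on the same strand. SDHC (ENSG00000143252, chromosome 1, 161314257 to 161375340) fell from 163 and 151 CPM to 113 and 115 CPM (log2 fold change -0.46, SE 0.074, adjusted p = 9.86e-08). SDHD (ENSG00000204370, chromosome 11, 112086773 to 112120013) rose from 33.2 and 34.4 CPM to 46.5 and 39.8 CPM (log2 fold change 0.35, SE 0.109, adjusted p = 0.00319), a call lost without replicate 1 labelled knockout (adjusted p = 0.239). The median over the 4 genes was 0.04, and it was -0.0090 with no composition factor, -0.0035 without wild-type replicate 2 and -0.045 without SDHD as a covered row (a setting chosen after seeing the data).

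Complex III, the cytochrome bc1 complex, had 4 genes lower and 2 higher of 9 tested, and its 2 large core proteins diverged. UQCRC1 (ENSG00000010256, chromosome 3, 48599002 to 48610976) rose from 581 and 492 CPM to 720.1 and 705 CPM (log2 fold change 0.41, SE 0.073, adjusted p = 1.01e-06). UQCRC2 (ENSG00000140740, chromosome 16, 21952660 to 21983660) fell from 152 and 155 CPM to 80.0 and 77.1 CPM, close to 2-fold (log2 fold change -0.97, SE 0.076, adjusted p = 3.34e-19). The wild-type and knockout-labelled libraries did not overlap for either gene. The protein products of this pair sit side by side on the matrix face of the complex. UQCRFS1, the Rieske iron-sulfur protein that passes electrons on towards cytochrome c, stood at 158 and 159.7 CPM against 154 and 156 CPM (adjusted p = 0.682). The small subunits UQCRQ, UQCR10 and UQCR11 fell, UQCRQ from 191 and 174 CPM to 125 and 117 CPM (log2 fold change -0.59), UQCR10 by 0.54 and UQCR11 by 0.48 on the log2 scale. UQCRB, which contributes to the ubiquinone site, rose from 49.6 and 60.7 CPM to 72.7 and 69.1 CPM (log2 fold change 0.36, SE 0.089, adjusted p = 0.000244). UQCRH, the hinge protein, missed the threshold (log2 fold change -0.14, adjusted p = 0.0826), and passed without wild-type replicate 2 (adjusted p = 0.00230). Summed over the 9 genes, complex III took 0.142% and 0.147% of wild-type reads and 0.139% of the reads in both others.

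Complex IV, cytochrome c oxidase, had 7 genes lower and 2 higher of 11 tested, with a median log2 fold change of -0.32. COX4I1, a nuclear subunit that joins early in assembly, fell from 496 and 443 CPM to 349.7 and 338 CPM (log2 fold change -0.45, SE 0.071, adjusted p = 5.83e-08). COX5A, its partner early in assembly, stood at 255 and 235 CPM against 231 and 246 CPM, and the groups overlapped (log2 fold change -0.04, adjusted p = 0.616). COX5B, which binds zinc, rose from 152 and 135 CPM to 166 and 175 CPM (log2 fold change 0.25, SE 0.074, adjusted p = 0.00249), a call lost without replicate 2 labelled knockout (adjusted p = 0.159). The small transmembrane subunits COX7B and COX6C fell most. COX7B (ENSG00000131174, chromosome X, 77899438 to 77907373) went from 59.0 and 56.4 CPM to 27.4 and 31.2 CPM (log2 fold change -0.98, SE 0.103, adjusted p = 1.33e-13), and COX6C from 107 and 109.7 CPM to 57.2 and 65.6 CPM (log2 fold change -0.82, SE 0.082). COX6A1 and COX6B1, the latter on the cytochrome c side, fell by 0.55 and 0.47 on the log2 scale. COX7C showed overlapping groups (266 and 245 CPM against 245 and 246 CPM). Without wild-type replicate 2, COX5A and COX7C were called lower (log2 fold change -0.12 and -0.13, adjusted p = 0.0470 and 0.0156). NDUFA4, named as a complex I subunit and counted there, is known as a component of complex IV, and it fell from 151 and 141 CPM to 115 and 111 CPM (log2 fold change -0.37, SE 0.074).

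**Figure D2:**
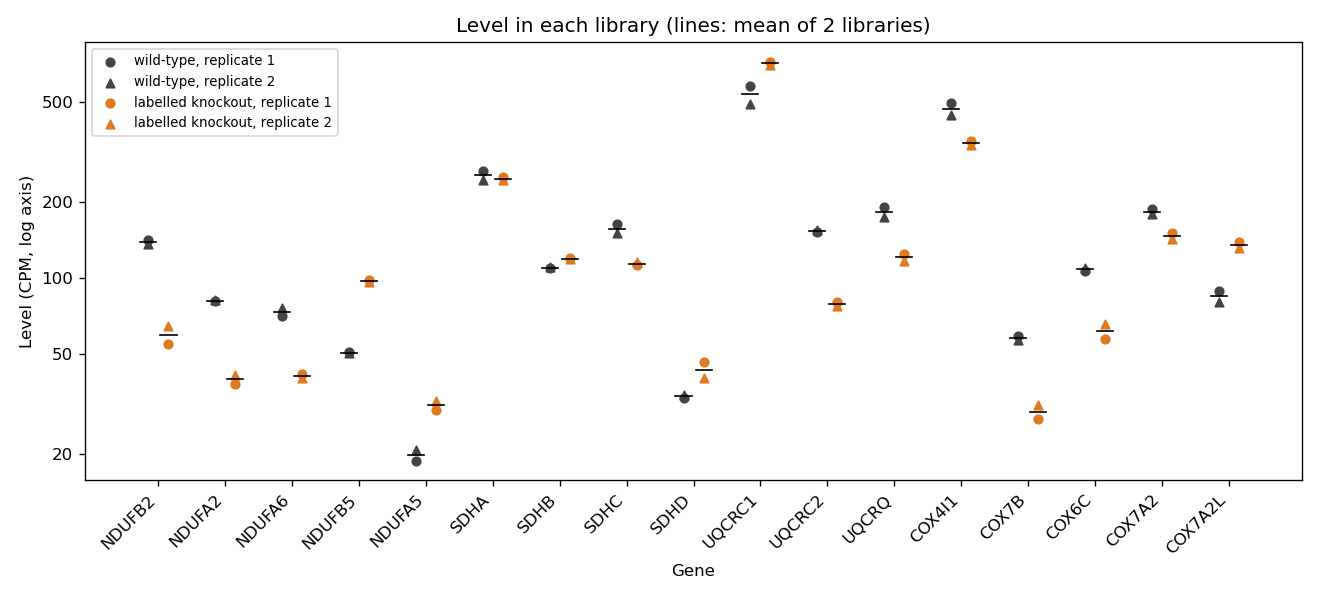
Level of 17 respiratory chain genes in each of the 4 libraries (y axis, CPM on a log axis, with dark points for wild-type, orange points for the libraries labelled knockout and lines for the mean of 2). The groups separate for NDUFB2, NDUFA2, UQCRC2 and COX7B, with knockout-labelled libraries lower, and for NDUFB5, UQCRC1 and COX7A2L, with them higher, while those of SDHA overlap.

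Where a subunit has several isoform genes, the general form had the higher level per length in every library. The genes COX4I2, COX6A2 and COX7B2, whose proteins are found mainly in lung, in heart and skeletal muscle, and in testis, had 0 reads in all 4 libraries, which allows up to 0.172 to 0.205 CPM per library for counting error alone. COX7A1, the heart and muscle form, had 0 and 1 reads in wild-type against 2 and 0 in the others, COX8C had 0 and 0 against 2 and 2, and COX6B2 had 9 and 6 against 3 and 8. NDUFA4L2, a relative of NDUFA4 induced in hypoxia, stood at 10.4 and 11.8 CPM against 9.82 and 8.23 CPM (adjusted p = 0.144), and per length it held 8.78% to 10.8% of the level of NDUFA4. The intronless gene UQCRHL, nearly identical to UQCRH, held 3.17% to 3.57% of the level of UQCRH per length in all 4 libraries, and reads cannot be divided between such copies with certainty.

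The balance shifted for COX7A2L, a relative of COX7A2 that joins complexes III and IV in supercomplexes. COX7A2L (ENSG00000115944, chromosome 2, 42333546 to 42425088) rose from 88.5 and 80.4 CPM to 139 and 131 CPM (log2 fold change 0.68, SE 0.077, adjusted p = 2.73e-12). COX7A2 (ENSG00000112695, chromosome 6, 75237675 to 75250323) was lower, at 187 and 179.5 CPM against 151 and 143 CPM (log2 fold change -0.32, SE 0.072, adjusted p = 9.27e-05), although it missed the threshold without replicate 2 labelled knockout (adjusted p = 0.0683). Per length, COX7A2L stood at 16.2% and 15.4% of the level of COX7A2 in wild-type and at 31.4% in both libraries labelled knockout. COX8A, the ubiquitous form of the smallest subunit, was also lower (log2 fold change -0.30), with an adjusted p of 0.000206 that became 0.0781 without the same library.

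The complexes were compared by their summed levels and by their levels relative to complex II. The summed CPM of complex I in the libraries labelled knockout was 0.792 of its wild-type mean, that of complex IV 0.853, that of complex II 0.943 and that of complex III 0.994. Within complex I the ratio was 0.964 for the core and 0.724 for the accessory subunits. The sum for complex III includes the rise of UQCRC1, its most abundant gene by reads, whereas the median log2 fold change of its 9 genes was -0.17. In FPKM, the median complex I gene stood at 1.31 and 1.28 times the median complex II gene in wild-type and at 0.844 and 0.925 times in the libraries labelled knockout. For complex IV the corresponding values were 4.76 and 4.52 against 3.40 and 3.45, and for complex III 2.09 and 2.22 against 1.92 and 2.07. The groups did not overlap for complexes I, III and IV in these ratios. The complex II median was set by SDHA, whose groups overlapped, and by SDHD, whose row lies 99.6% inside another. The SDHD call was lost without replicate 1 labelled knockout. The median complex III gene was UQCRFS1, which was not called (edgeR adjusted p = 0.682). The small gap for complex III is therefore not read as a shift of that complex, and ratios without SDHD are not given. With 2 libraries in each group an exact permutation test cannot give a two-sided p below 0.333, so no such test was made.

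The lower respiratory chain genes were mostly short, and short abundant genes were lower in general. Of the 27 tested members with gene models under 2000 bases, 20 were lower and 1 higher (median log2 fold change -0.51), against 15 lower and 7 higher of 35 longer ones (median -0.18). Among members averaging at least 50 CPM, 15 of 19 short genes were lower (78.9%) and 9 of 22 long ones (40.9%). The same classes of all other protein-coding genes at that level had 63.1% of 293 short genes lower (median -0.42) and 48.3% of 3752 long genes lower (median -0.14). The medians of the respiratory chain genes in the short and long class were -0.51 and -0.08. Complex II and the tested core of complex I, with medians of 0.04 and -0.03, hold no gene under 2000 bases. Across the 62 genes, log2 fold change and log2 length had a Pearson correlation of 0.31 and a Spearman correlation of 0.32, as a description over genes of the same libraries. The part of gene length in the results was not tested.

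**Figure D3:**
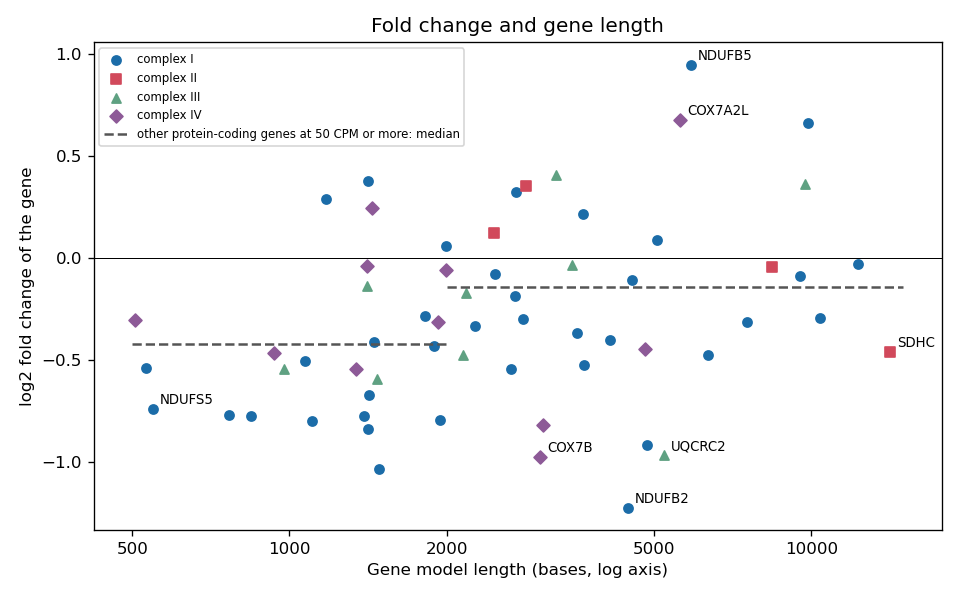
Log2 fold change (y axis) of the 62 tested respiratory chain genes against gene model length (x axis, bases on a log axis), with 1 symbol for each complex. Dashed lines mark the median of other protein-coding genes averaging at least 50 CPM, -0.42 under 2000 bases and -0.14 above, and most short members lie at or below the first line.

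Genes near the members on the chromosome were read for comparison. For each tested member the median log2 fold change of up to 25 tested genes on either side was taken. Of the 35 lower members, 26 lay where that median was within 0.3 of 0, and 4 where it was below -0.3. That is near the share over all 62 tested members, of which 15 had a neighbour median beyond 0.3 in either direction. NDUFB2 had a neighbour median of -0.31 and NDUFV3, on chromosome 21, one of -0.66, which is lower than its own change of -0.48. UQCRC2 and NDUFB9 lay among neighbours at 0.01. COX7A2 and NDUFA12 were lower although their neighbours stood at 0.84 and 0.60, and the call for NDUFA12 was lost without either library labelled knockout (adjusted p = 0.149 and 0.135). Of the 8 higher members, 3 lay where the median was above 0.3, and these were the 3 largest rises, NDUFB5 (neighbours 0.60), COX7A2L (0.76) and NDUFA5 (0.52). The rise of COX7A2L, 0.68 with an SE of 0.077, was thus close to the median of its neighbours. UQCRC1, with neighbours at 0.15, and UQCRB, with neighbours at -0.26, rose beyond them. Across the 62 genes the correlation with the neighbour median was 0.31 (Pearson) and 0.23 (Spearman), again as a description only.

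**Figure D4:**
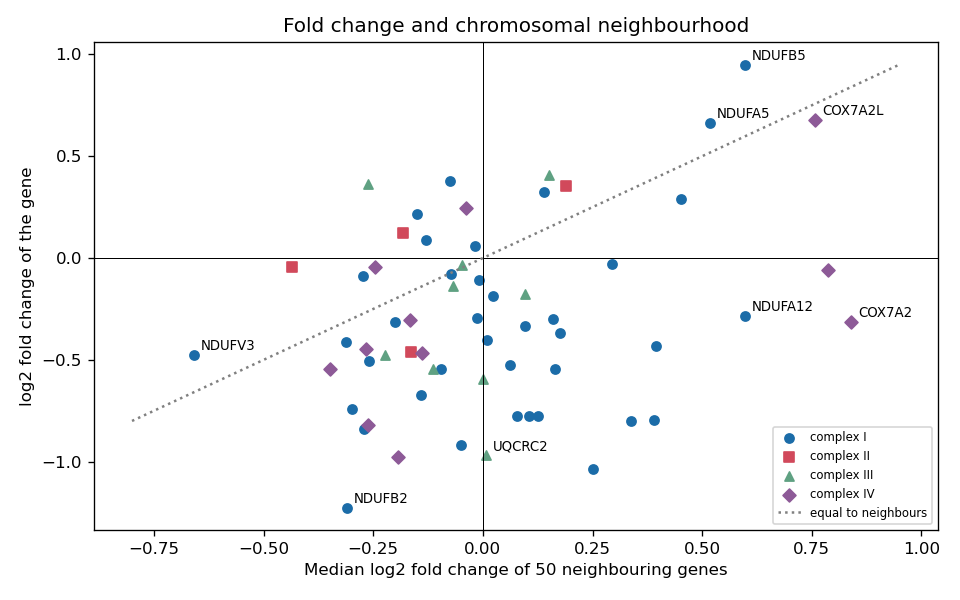
Log2 fold change of the 62 tested respiratory chain genes (y axis) against the median log2 fold change of up to 50 neighbouring tested genes (x axis), with 1 symbol for each complex and a dotted line where both are equal. NDUFB5, COX7A2L and NDUFA5 lie in neighbourhoods above 0.5, whereas UQCRC2 lies in a neighbourhood close to 0, as do most of the 62 genes.

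Genes that work with these subunits were read in the same fit, in which 32.3% of all genes tested were lower and 33.7% higher. Of 17 nuclear subunits of ATP synthase, the enzyme that uses the proton gradient, 12 were lower and 1 higher (median -0.51). ATP5ME fell from 25.6 and 24.6 CPM to 10.6 and 10.9 CPM and ATP5MC1, a gene for the membrane ring, from 130.1 and 115 CPM to 63.0 and 67.9 CPM, while ATP5PB, of the peripheral stalk, rose (log2 fold change 0.48). NDUFAB1, the acyl carrier protein of complex I, fell by 0.53 on the log2 scale. Cytochrome c (CYCS, log2 fold change 0.17, adjusted p = 0.0553) and cytochrome c1 (CYC1, log2 fold change -0.11, adjusted p = 0.160) did not pass. Both depended on the processing. With all 4 libraries, CYCS was called higher with upper-quartile scaling (edgeR adjusted p = 0.0162) or with protein-coding rows only (0.0292). It was also called with a replicate block (0.0268) or a filter of 1 CPM in at least 2 libraries (0.0396). CYC1 was called lower with no composition factor (-0.16, edgeR adjusted p = 0.0207). When wild-type replicate 2 was left out, CYCS stood at 0.32 and CYC1 at -0.21. All 13 subunits encoded by mitochondrial DNA were higher, with a median of 1.01 and the largest values in MT-ND2 and MT-CO3 (1.47 for the latter). Their summed level was 51210 and 45460 CPM in wild-type against 91134 and 88642 CPM in the libraries labelled knockout, opposite in direction to most nuclear partners.

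Assembly factors did not move as 1 group, and their counts stand beside 32.3% lower and 33.7% higher over all genes tested. For complex I, 10 of 16 were lower and 4 higher, with NDUFAF8 at -0.97, NDUFAF6 at -0.83, NDUFAF4 at 0.70 and NDUFAF7 at 1.10. For complex II, SDHAF4 (0.82) and SDHAF3 (0.50) were higher of 4 tested, and SDHAF3 lost its call without wild-type replicate 1 (adjusted p = 0.0723) or either library labelled knockout. For complex III, 3 of 6 were lower, led by TTC19 (-0.67) and UQCC2 (-0.49), and LYRM7 (0.69) and UQCC1 (0.37) were higher. For complex IV, 13 of 25 were lower and 4 higher. LRPPRC, which stabilises mitochondrial messenger RNAs, rose from 48.9 and 63.2 CPM to 198 and 203 CPM (log2 fold change 1.84, SE 0.083, adjusted p = 5.31e-33), and COX19 was at 0.65. The largest falls, COX16 (-1.43) and PET117 (-1.37), rested on less than 2 CPM and were lost without replicate 2 labelled knockout (adjusted p = 0.356 and 0.176) or 1 wild-type library (adjusted p = 0.148 and 0.0522).

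Among 11 tested regulators of mitochondrial gene expression, 8 were higher and 2 lower, by at most 0.64 on the log2 scale in either direction. Over all genes tested, 33.7% were higher and 32.3% lower. PPARGC1B, a coactivator of mitochondrial genes, was at 0.48 and TFB1M, a methyltransferase of mitochondrial ribosomal RNA, at 0.52, with the TFB1M call lost without replicate 2 labelled knockout (adjusted p = 0.0907). ESRRA, a receptor-type factor known to act on respiratory chain genes, was at 0.48. NRF1, another such factor, stood at 39.1 and 38.7 CPM against 28.9 and 32.2 CPM (log2 fold change -0.35), a call lost without replicate 1 labelled knockout (adjusted p = 0.175). POLRMT, the mitochondrial RNA polymerase, fell from 433 and 391 CPM to 274 and 257 CPM (log2 fold change -0.64, SE 0.071, adjusted p = 1.23e-12), in the same libraries in which mitochondrial transcripts were higher. Of 77 genes for mitochondrial ribosomal proteins 42 were lower and 15 higher (median -0.29), with MRPL27 at -1.29, MRPL51 at -1.15, MRPS30 at 1.28 and MRPS21 at 1.59. Citric acid cycle enzymes divided as 6 higher and 5 lower of 13, with DLST at 0.99, SUCLG2 at 0.68, IDH3B at -0.51 and IDH3A at -0.74. Genes of coenzyme Q synthesis, which makes ubiquinone, were higher for 4 and lower for 1 of 11. PDSS2 was at 0.89, COQ8A at 0.65 and COQ8B at -0.21. Beside the shares over all genes, the counts for the citric acid cycle and coenzyme Q are not read as shifts. The COQ8B call was lost without wild-type replicate 1 (adjusted p = 0.115) or either library labelled knockout (adjusted p = 0.186 and 0.283).

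**Figure D5:**
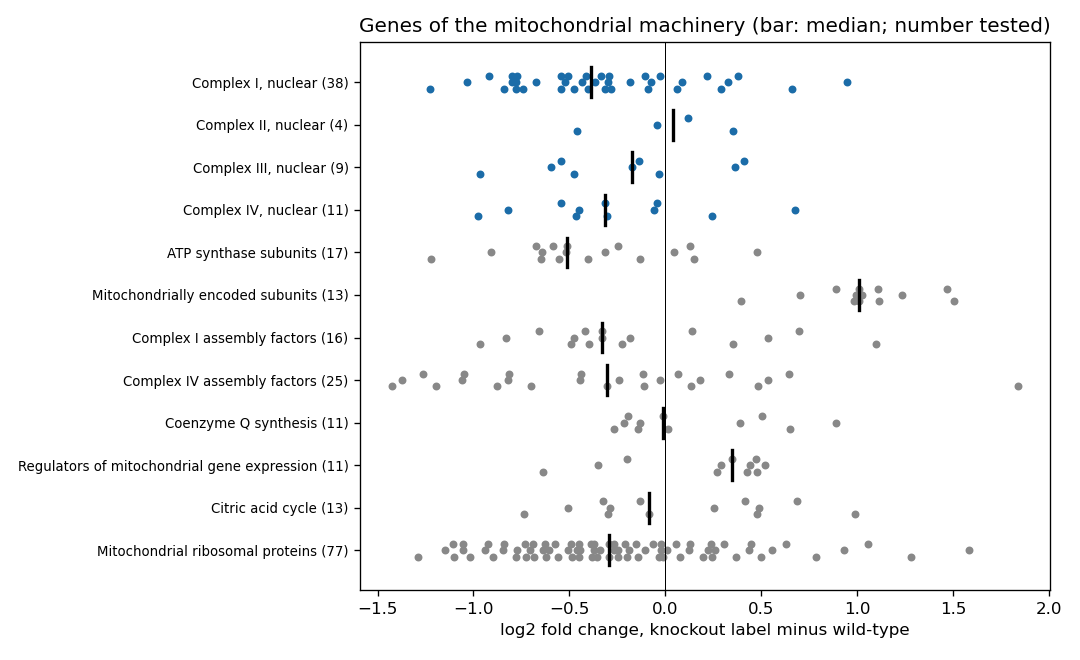
Log2 fold change (x axis, libraries labelled knockout minus wild-type) of each tested gene in the 4 complexes (blue) and in related gene lists (grey), with a bar at the median and the number tested in brackets. Medians lie at -0.39 for nuclear complex I genes and -0.51 for ATP synthase, and at 1.01 for subunits encoded by mitochondrial DNA, none of which lies below 0.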

How the data were processed

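The authors deposited raw read counts per gene without normalization. Per the submitters' processing notes, the tools were featureCounts 1.5.0-p3, HISAT2 2.0.5 and CASAVA 1.8. The genome build and the strand setting were not given in the sources used here. Although the samples are labelled as mouse, each of the 58735 rows carries a human Ensembl identifier. Columns were assigned to samples by the short name in each description. Counts were fitted with edgeR 4.0.16 in R 4.3.3 (TMM scaling, filterByExpr with a minimum of 10 counts, two-sided quasi-likelihood test, no covariate), and p-values were adjusted by Benjamini-Hochberg over 15294 genes. The procedure was tested on simulated data in which few genes changed. Its behaviour under changes as broad as those called here was not tested. Each SE is the size of the edgeR log2 fold change divided by the square root of the quasi-likelihood F statistic. DESeq2 1.42.0 was an alternative. Levels per length used the deposited gene lengths. Between replicates, chi-square per gene was 5.83 (wild-type) and 2.21 (labelled knockout), above sampling noise. Named genes are up to 4 called rises and 4 falls in each complex, the complex I core, the SDH genes, isoform families, and up to 2 rises and 2 falls in each related list. Genes named beyond these serve as examples and were chosen after their values were seen. The members and lists were chosen with earlier results of these data known. A planned search for promoter motifs was not made, since no human promoter sequences were used here. The result for 1 tested member is not reported here by name, although it is included in the counts and medians.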

Additional observations from a re-analysis of the deposited data

How the results depend on the processing

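The count of lower members (35) ranged from 30 to 42 and that of higher members (8) from 6 to 9 when 1 library was left out, in fits that then take the lone library of a group to vary like the others. DESeq2 called 33 and 8. Requiring a fold of at least 1.5 left 15 and 3. Calls over all genes (10088) ranged from 8018 to 10263 with 1 library left out. Of the 35 lower members, 29 kept their call in all 13 refits, as did 5 of the 8 higher ones, and no called member changed sign. The medians moved with the scaling. With upper-quartile scaling they were -0.35, 0.075, -0.14 and -0.28 for complexes I to IV, and with no composition factor -0.43, -0.0090, -0.22 and -0.36. With 1 library left out they ranged from -0.42 to -0.36, from -0.0035 to 0.086, from -0.22 to -0.13 and from -0.36 to -0.27. Without the members inside other rows (chosen after seeing the data) the medians were -0.41 for complex I and -0.045 for complex II, where SDHD drops out. Of uncalled genes named in the report, NDUFS1 turned to 0.0079 and UQCRFS1 to 0.0016 with upper-quartile scaling, and NDUFS1 ranged from -0.098 to 0.048 with 1 library left out. In the same refits NDUFV1 ranged from -0.0075 to 0.19, NDUFV2 from -0.19 to 1.18, SDHA from -0.12 to 0.036, NDUFA13 from -0.61 to 0.42, NDUFB8 from -0.10 to 0.25, COX5A from -0.12 to 0.039 and COX7C from -0.13 to 0.019. Among genes not named there, NDUFA3 reached 0.094 without replicate 1 labelled knockout. The cause of these changes was not tested. Adding pseudogene reads, 0.623% to 0.712% of member reads, changed no called direction. The replicate numbers share only a number (correlation of same-numbered deviations across genes 0.026), and with a replicate block 35 members were lower and 8 higher.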
